A study of Homo sapiens with 4 samples.

Results

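The 37 genes encoded by the human mitochondrial genome were followed in bladder cancer cells that had been transfected with a circular RNA. They comprise 13 mRNAs, 2 ribosomal RNAs and 22 transfer RNAs, and were taken as every gene of the deposited count table whose symbol starts with MT-, 37 of 56303 genes. The cells were the established bladder cancer lines EJ and T24T, each transfected either with hsa_circ_0008399 (circ below) or with the matching vector, to look for genes that the circular RNA regulates. This gave 4 groups with 1 library each, from total RNA extracted with TRIzol: EJ vector, EJ circ, T24T vector and T24T circ. The transfection therefore has no replicate within a line, and the 2 lines are its only replication. Nothing in the labels says how much circular RNA the cells received or how long after transfection they were collected, and the circular RNA itself was not analysed here.

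Total counts per library lay between 14703455 and 18057768. The epithelial keratin gene KRT7 had 6093 to 8566 counts and KRT8 2164 to 14341, while the basal keratin gene KRT5 and the uroplakin gene UPK3A were at 0 counts in all 4 libraries and the urothelial factor gene GATA3 reached at most 1. Of the markers of other cells, 4 of 5 for leukocytes, 5 of 5 for endothelium and stroma and 4 of 4 for erythroid cells and muscle stayed under 10 counts in every library. The exception was CD68, with 160 counts in EJ vector and 1111 in T24T circ. Some markers moved with circ. Of 8 tested urothelial and epithelial markers 1 rose, KRT7 (log2 difference 0.37, edgeR adjusted p = 0.00214), and the median over those tested was -0.06. Of 3 mesenchymal markers FN1 fell (-0.73, edgeR adjusted p = 7.44e-07) while VIM and CDH2 did not pass. The summed mesenchymal level, in counts scaled per library, was 939 with vector and 859 with circ in EJ, and 2111 and 1321 in T24T; its part in the results below was not tested. RNA was read in bulk, so fewer cells of a kind and less RNA per cell cannot be told apart.

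Mitochondrial DNA is a small circle that is transcribed from both strands into long precursors by the polymerase POLRMT with the factor TFAM. Transfer RNAs sit between most of the other genes, and cutting at both ends of each tRNA, by RNase P and by ELAC2, releases the mRNAs and rRNAs. The mRNAs encode core subunits of respiratory complexes I, III, IV and V, the rRNAs form the core of the mitochondrial ribosome, and in human cells tRNA-Val is built into the large ribosomal subunit as a structural RNA. In the annotation 28 of the genes lie on the plus strand and 9 on the minus strand (MT-ND6 and 8 tRNAs). All 37 positions in the deposited table equal those of GENCODE release 29 on GRCh38.

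Several sequences help to follow the results, and they are given 5′ to 3′ from the GENCODE release 29 transcripts. The first is the tRNA that did not fall with the others, MT-TV (valine, MT:1602-1670, plus strand). The next 5 are tRNAs that the results single out, for a large difference, for a gap between the lines or, in MT-TG, for a level above its neighbours: MT-TM (methionine, MT:4402-4469, plus), MT-TK (lysine, MT:8295-8364, plus), MT-TL2 (leucine, MT:12266-12336, plus), MT-TS1 (serine, MT:7446-7514, minus) and MT-TG (glycine, MT:9991-10058, plus). Capitals mark the anticodon triplet, placed by the triplet with a T before it and a purine after it, or in MT-TM by the triplet alone. The 22 tRNA genes are 59 to 75 bases long, shorter than every other member.
MT-TV: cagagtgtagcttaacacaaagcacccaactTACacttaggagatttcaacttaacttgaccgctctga
MT-TM: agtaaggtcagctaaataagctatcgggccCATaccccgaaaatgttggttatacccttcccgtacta
MT-TK: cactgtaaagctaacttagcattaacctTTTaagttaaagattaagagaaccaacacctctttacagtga
MT-TL2: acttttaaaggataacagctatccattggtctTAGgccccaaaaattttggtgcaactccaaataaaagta
MT-TS1: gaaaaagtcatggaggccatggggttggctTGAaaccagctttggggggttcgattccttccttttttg
MT-TG: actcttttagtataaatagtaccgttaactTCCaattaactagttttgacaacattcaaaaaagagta

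The last sequence is the shortest mRNA, MT-ATP8 (MT:8366-8572, plus strand), whose final 46 bases, in capitals, are also the first bases of MT-ATP6. Reads from those bases could be counted for both genes or for neither, and which was done is not given here. The values of this pair are therefore not taken as independent. The other overlaps are 7 bases between MT-ND4L and MT-ND4, 3 bases between MT-TI and MT-TQ on opposite strands, and 1 base each between MT-TC and MT-TY and between MT-ATP6 and MT-CO3.
MT-ATP8: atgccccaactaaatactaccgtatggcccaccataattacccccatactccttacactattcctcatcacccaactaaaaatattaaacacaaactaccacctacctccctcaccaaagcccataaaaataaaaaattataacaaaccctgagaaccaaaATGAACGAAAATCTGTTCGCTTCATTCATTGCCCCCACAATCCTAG

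Mitochondrially encoded RNA was a substantial part of every library. In EJ the 37 genes held 5.40% of all counts with vector and 4.01% with circ, and in T24T 5.05% and 3.08%. Both circ libraries lay below both vector libraries, and the exact binomial intervals (95%, for counting error alone) ran, for example, from 5.39% to 5.41% in EJ vector. Most of these counts came from the mRNAs, at 84.3% of the mitochondrial counts with vector and 83.3% with circ in EJ, and 89.8% and 86.2% in T24T. The rRNAs gave 13.2%, 14.3%, 7.13% and 10.7% in the same order, and the tRNAs 2.53%, 2.39%, 3.04% and 3.06%. Genes of the minus strand held 6.76%, 6.14%, 6.62% and 6.93%, the larger part of it from MT-ND6.

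Levels per length, in the deposited RPKM, ranged widely between members, in EJ vector from 101 for MT-TF to 11622 for MT-ATP8. The highest level in every library was that of MT-ATP8, a small subunit of the ATP synthase, at 11622 RPKM with vector and 8632 with circ in EJ, and 9939 and 5516 in T24T. MT-ATP6, the proton channel subunit of the same enzyme, followed in the EJ libraries at 8394 RPKM in the vector and 6865 in the circ library. In T24T the complex I gene MT-ND4L took that place, at 6846 RPKM in the vector and 4251 in the circ library. The lowest mRNA in all 4 libraries was MT-CYB, the only complex III gene of this genome, at 1888 and 1441 RPKM in EJ and 1580 and 874 in T24T, with vector and circ in that order.

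The 2 rRNAs were far apart in counts per length although they are neighbours on the same precursor. How RNA was selected for the libraries is not stated here, so these counts may not follow the amounts in the cells. The 16S rRNA MT-RNR2 stood at 4467 RPKM with vector and 3624 with circ in EJ, and 2208 and 2069 in T24T. The 12S rRNA MT-RNR1 stood at only 166, 85.6, 170 and 75.1 RPKM in the same order, among the lowest levels of the genome. The 16S level per length was thus 26.9, 42.3, 12.97 and 27.5 times that of the 12S rRNA, and the ratio was higher in the circ library of each line.

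MT-ND6, the complex I gene on the minus strand, stood at 6105, 4180, 5378 and 3415 RPKM, which was 1.66, 1.70, 1.44 and 1.59 times the level of its plus-strand neighbour MT-ND5. It ranked between 3 and 5 among the 13 mRNAs. Whether reads were counted by strand is not given in the sources used here, so reads from a gene and from the RNA opposite to it cannot be told apart.

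Among the tRNAs the median level was 665 RPKM with vector and 542 with circ in EJ, and 548 and 392 in T24T, against 3681, 2510, 3779 and 2206 for the mRNAs. Reads on these short genes may come from the tRNAs or from longer precursors, which the counts cannot tell apart. The tRNA values here and below are therefore counts over the gene, not amounts of finished tRNA. Relative to the mean of the nearest mRNA or rRNA on each side, tRNA levels ranged from 0.0305 to 1.14. Only MT-TG lay above its neighbours, and only in the T24T libraries, at 1.11 times their mean in the vector and 1.14 times in the circ library. The lowest tRNA in 3 of the 4 libraries was MT-TF, the phenylalanine tRNA at the start of the plus-strand genes, at 101 RPKM with vector and 63.2 with circ in EJ, and 86.0 and 39.0 in T24T. In the T24T vector library MT-TM, at 77.6 RPKM, lay below it. Position along the genome was only loosely related to level: over the 37 genes of a library, which share its depth and preparation, Spearman's rho between start and RPKM was 0.21 with vector and 0.20 with circ in EJ, and 0.31 and 0.26 in T24T.

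**Figure D1:**
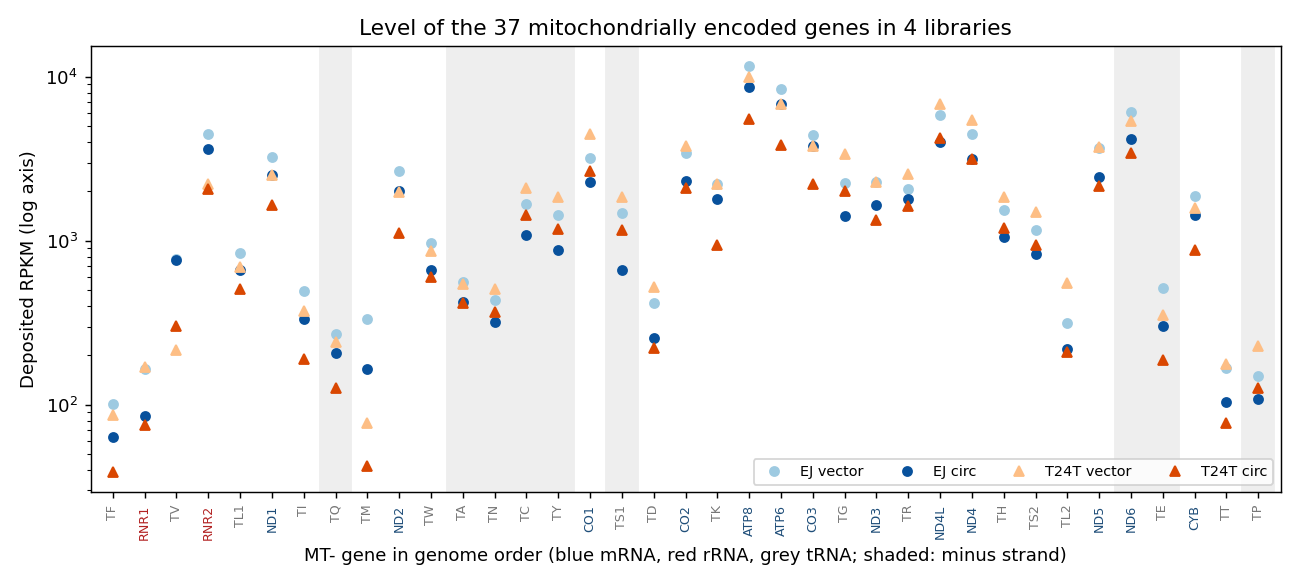
Deposited RPKM (log axis) of the 37 MT- genes in genome order, 1 point for each of the 4 libraries (circles EJ, triangles T24T; light vector, dark circ), with minus-strand genes shaded. MT-ATP8 is highest in each library, MT-RNR1 lies far below MT-RNR2, and the dark points lie under the light points of the same line for nearly all genes except MT-TV.

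The first comparison asked how these genes differed between circ and vector cells. Nearly all were lower with circ: 35 of the 37 fell and 0 rose in edgeR's quasi-likelihood test with line as a block (Benjamini-Hochberg adjusted p under 0.05 over 17689 tested genes), including all 13 mRNAs, 1 of 2 rRNAs and 21 of 22 tRNAs. By strand, 26 of 28 plus-strand and 9 of 9 minus-strand genes fell. Among all tested genes 5.56% were called lower and 7.13% higher. The median log2 difference was -0.61 over the members and 0.0018 over all tested genes. On the scaled counts both circ libraries lay below both vector libraries for 34 members, against 13.5% of all tested genes, and the groups overlapped for MT-TV, MT-RNR2 and MT-TM.

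The fit to 4 libraries left 1 residual degree of freedom, and the spread of a gene was mostly borrowed from the other genes. With line left out of the edgeR model, or with limma on log2(RPKM + 1), 0 of the 37 passed the adjusted threshold (12 and 35 at an unadjusted p under 0.05). In both settings 0 of all 17689 tested genes passed (397 and 3548 at an unadjusted p under 0.05). DESeq2 called 25 lower, among them 11 of 22 tRNAs, where it called 153 lower and 181 higher among all 17689 tested genes. It gave no adjusted p for MT-TF, MT-TM, MT-TT and MT-TP, and MT-TL1, MT-TQ, MT-TA, MT-TN, MT-TK and MT-TR did not pass in it.

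The complex I mRNAs showed the pattern clearly. MT-ND5, a large membrane subunit, had 104313 counts with vector and 65502 with circ in EJ, and 114017 and 70419 in T24T. Both circ values were far below both vector values, a log2 difference of -0.67 ± 0.08 (SE; edgeR adjusted p = 2.39e-07). MT-ND6 on the other strand had 50128 counts with vector and 32269 with circ in EJ, and 47614 and 32378 in T24T, and fell by 0.58 ± 0.08 (edgeR adjusted p = 2.47e-06). The differences of MT-ND4 (-0.63), MT-ND2 (-0.61), MT-ND4L (-0.60) and MT-ND3 (-0.60) were alike. MT-ND1, the first mRNA after the rRNAs, had the smallest fall of the 13 mRNAs (-0.47 ± 0.08, edgeR adjusted p = 9.61e-05).

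In complex IV, MT-CO2, the subunit that takes electrons from cytochrome c, had 36831 counts with vector and 23153 with circ in EJ, and 43469 and 25968 in T24T. Its fall was the largest among the mRNAs (-0.70 ± 0.08, edgeR adjusted p = 2.75e-07). MT-CO1, the catalytic subunit, fell by 0.60 and MT-CO3 by 0.49 on the log2 scale. MT-CYB of complex III fell by 0.61, and in complex V MT-ATP8 fell by 0.62 and MT-ATP6 by 0.54. All 13 mRNA differences thus lay between -0.70 and -0.47, a narrow range beside that of the tRNAs. Many tRNAs have far fewer counts and a larger SE, 0.20 for MT-TF and 0.16 for MT-TM, which can widen their range.

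At the start of the plus-strand transcript, where MT-TF, MT-RNR1, MT-TV and MT-RNR2 adjoin without a gap, neighbours differed most. MT-RNR1 had 2481 counts with vector and 1201 with circ in EJ, and 2739 and 1294 in T24T. Its log2 difference, -1.05 ± 0.09 (SE; edgeR adjusted p = 4.54e-10), was the largest fall among the 37 genes. MT-TV, the next gene, had 830 counts in EJ vector and 776 in EJ circ, but 252 in T24T vector and 375 in T24T circ. It was lower in both T24T libraries than in either EJ library, and its difference with circ did not pass (0.21 ± 0.11, edgeR adjusted p = 0.236).

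MT-RNR2, the gene after MT-TV, had 108921 counts with vector and 83065 with circ in EJ, and 58043 and 58245 in T24T. The line separated its libraries more than the transfection did, and its difference did not pass either (-0.18 ± 0.08, edgeR adjusted p = 0.118), except that with no filter on low counts it did (-0.20, adjusted p = 0.00959). MT-TL1, the leucine tRNA that follows, fell by 0.38 ± 0.09 (edgeR adjusted p = 0.00535). The ratio of 16S to 12S rRNA per length was thus 26.9 with vector and 42.3 with circ in EJ, and 12.97 and 27.5 in T24T, values of 1 library each with no test.

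**Figure D2:**
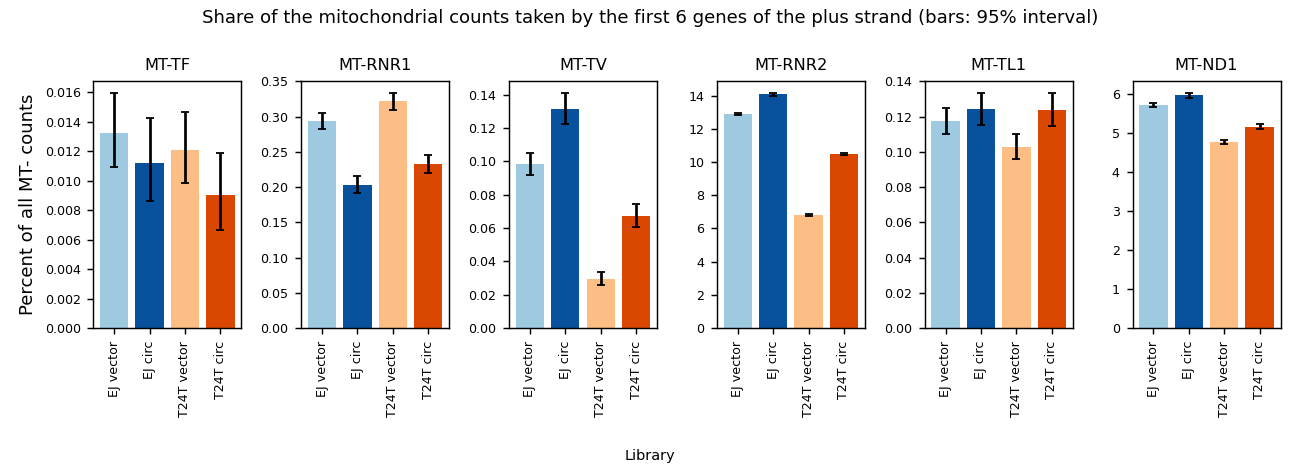
Percent of all MT- counts taken by the first 6 plus-strand genes, 1 panel each with its own axis from 0, 1 bar per library with an exact 95% binomial interval for counting error. In both lines the circ bar is lower than the vector bar for MT-RNR1 and higher for MT-TV and MT-RNR2.

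The remaining tRNAs fell by very different amounts. The largest falls, after MT-RNR1, were those of MT-TL2 (-0.98), MT-TD (aspartate, -0.97), MT-TM (-0.96), MT-TT (threonine, -0.92), MT-TF (-0.88) and MT-TS1 (-0.87). MT-TD had 447 counts with vector and 254 with circ in EJ, and 598 and 273 in T24T, and fell by 0.97 ± 0.12 (edgeR adjusted p = 1.31e-06). MT-TF rests on few reads, with 112, 66, 103 and 50 counts, and its counting intervals are wide. At the other end were MT-TA (alanine, -0.38 ± 0.10, edgeR adjusted p = 0.0119), MT-TL1, MT-TR (arginine, -0.42) and MT-TN (asparagine, -0.44). The median difference was -0.66 over the 22 tRNAs and -0.60 over the mRNAs.

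The other tRNAs that fell lay between these values. MT-TQ (glutamine) changed by -0.64, MT-TI (isoleucine) by -0.74, MT-TW (tryptophan) by -0.52, MT-TC (cysteine) by -0.58, MT-TY (tyrosine) by -0.66, MT-TK by -0.75 and MT-TG by -0.69. Towards the far end of the genome, MT-TH (histidine) changed by -0.57, MT-TS2 (the second serine tRNA) by -0.56, MT-TE (glutamate) by -0.83 and MT-TP (proline) by -0.66. No order along the genome is visible in these values: Spearman's rho between start and log2 ratio over the 37 genes was -0.08 in EJ and -0.23 in T24T, and that between GC content and the fitted difference was 0.11.

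Within single lines, log2 ratios of circ over vector were below 0 in both lines for 36 of the 37 genes, where 32.3% of all tested genes were. In EJ the 95% counting interval lay below 0 for 36 members and in T24T for 36. Of all tested genes, 49.7% had a ratio below 0 in EJ and 48.9% in T24T. The gene outside this count in each line was MT-TV, with a log2 ratio of -3.14e-05 in EJ (interval -0.14 to 0.14) and 0.49 in T24T (0.26 to 0.73).

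Ratios tended to be lower in T24T, with a median of -0.49 over the members in EJ and -0.75 in T24T; 28 genes had the lower ratio in T24T and 9 in EJ, where 49.0% of all tested genes had it in T24T. The difference between lines was not tested, since each line has 1 library per group. All 13 mRNAs were on the T24T side. The gap was widest for MT-TK, with 2417 counts in EJ vector and 1853 in EJ circ against 2619 in T24T vector and 1184 in T24T circ, which gave log2 ratios of -0.29 and -1.22. MT-TL2 followed, at -0.52 in EJ and -1.37 in T24T. MT-TS1 differed the other way: with vector and circ it had 1584 and 677 counts in EJ and 2150 and 1452 in T24T, ratios of -1.13 and -0.64. Between the ratios in EJ and in T24T, Spearman's rho was 0.31 over the 37 genes (Pearson's r 0.43), 0.35 over the 22 tRNAs and -0.12 over the 13 mRNAs, as a description across genes that share 4 libraries.

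**Figure D3:**
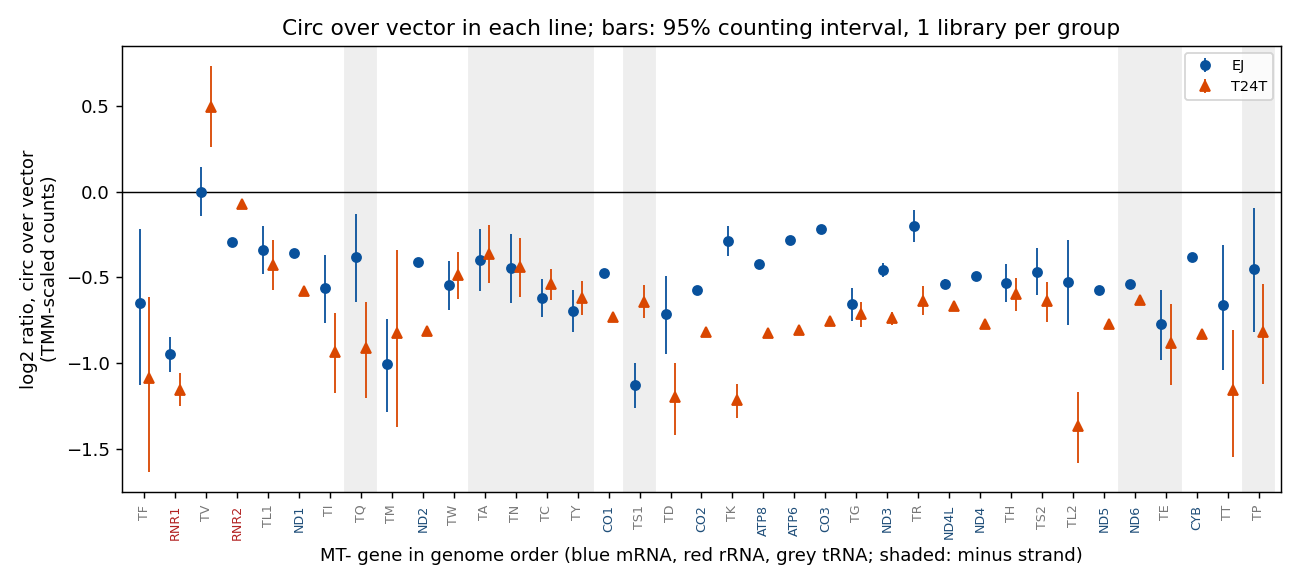
Log2 ratio of circ over vector in TMM-scaled counts for each MT- gene in genome order, EJ as circles and T24T as triangles, with 95% counting intervals and 1 library per group. The points lie below 0 in both lines for 36 genes, MT-TV lies at 0 in EJ and above 0 in T24T, and MT-TK, MT-TL2 and MT-TS1 have the widest or among the widest gaps between lines.

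Set against the other mitochondrial RNA rather than against all genes, 3 members took a larger share with circ in both lines and 6 a smaller one, beyond the counting intervals. The shares of MT-TV, MT-RNR2 and MT-ND1 were larger, and those of MT-RNR1, MT-CO1, MT-TD, MT-CO2, MT-ND4 and MT-ND5 smaller. Shares within a library sum to 100%, so a larger share of MT-RNR2 by itself lowers those of the other members. When libraries were scaled to the summed counts of the 13 mitochondrial mRNAs, a comparison added after the data had been seen, MT-TV was higher with circ (0.82 ± 0.24, edgeR adjusted p = 0.00563) and no other member passed. The mRNAs set this scale, so their own differences centre near 0 by construction. They were -0.010 for MT-CO1, -0.040 for MT-ND4, -0.078 for MT-ND5, -0.10 for MT-CO2 and 0.13 for MT-ND1. Under that scaling 45.1% of all tested genes were called higher and 0.0339% lower, so a call of "higher" is shared by many genes. MT-RNR2 (0.41 ± 0.37, edgeR adjusted p = 0.315), MT-RNR1 (-0.46 ± 0.27, 0.130) and MT-TM (-0.39 ± 0.24, 0.161) did not pass. The SE of MT-RNR2 was 0.37 under this scaling and 0.08 in the first fit, so not passing here says little about it. The call of MT-TV also depends on how the spread is estimated. It passed with the dispersions of the first fit over all genes (edgeR adjusted p = 0.00783). A fit on the 37 genes alone called none of them, with MT-RNR2 (0.41, edgeR adjusted p = 0.0888) ahead of MT-TV (0.78, unadjusted p = 0.00749, edgeR adjusted p = 0.139). MT-TM (-0.42) and MT-TT (-0.33) were also under 0.05 there before adjustment, so MT-TV did not stand out alone.

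The second comparison, T24T against EJ with transfection as the block, split the members instead of moving them together. Of the 37 genes 14 were lower and 12 higher in T24T, where 19.5% of all tested genes were called lower and 21.9% higher. By class, 6 mRNAs were lower and 3 higher, MT-RNR2 was lower, and 7 tRNAs were lower and 9 higher. Of the 26 called genes 25 had the same sign in the vector pair and in the circ pair of libraries. The exception was MT-TK, with log2 ratios of T24T over EJ of 0.06 in the vector pair and -0.87 in the circ pair. The calls were fitted on these same libraries, so the shared signs are no separate support for them. DESeq2 called 10 lower and 5 higher, where it called 1441 lower and 1776 higher among all 17689 tested genes. Without the block 3 were lower and 0 higher, where 1248 and 1944 of all tested genes were.

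MT-TM differed most. It had 356 counts in EJ vector and 165 in EJ circ against 89 in T24T vector and 52 in T24T circ, all T24T values lying below all EJ values, a log2 difference of -1.98 ± 0.16 (SE; edgeR adjusted p = 7.01e-12). MT-TV was lower by a log2 difference of -1.51 ± 0.11 (edgeR adjusted p = 9.01e-13), and MT-RNR2 by -0.85 ± 0.08 (6.85e-11). MT-RNR1 between MT-TF and MT-TV did not pass (-0.0093 ± 0.09, adjusted p = 0.946), so the line difference of the 2 rRNAs was also unequal.

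The other lower members in T24T were MT-ND2 (-0.58), MT-TE (-0.56), MT-TI (-0.52), MT-ATP6 (-0.51), MT-CO3 (-0.44), MT-CYB (-0.43), MT-ND1 (-0.41), MT-TK (-0.39), MT-ATP8 (-0.37), MT-TQ (-0.35) and MT-TL1 (-0.27). Higher in T24T were MT-TS1 (0.62 ± 0.10, edgeR adjusted p = 3.32e-06), MT-TG (0.61), MT-TP (0.50), MT-TL2 (0.49), MT-TY (0.47), MT-TC (0.44), MT-CO1 (0.41), MT-TS2 (0.34), MT-TH (0.29), MT-TN (0.27), MT-ND4L (0.22) and MT-ND4 (0.21). Of the 8 minus-strand tRNAs 5 were higher and 2 lower. Scaled to the mitochondrial mRNAs, MT-TV and MT-TM stayed lower and MT-TS1 higher (edgeR adjusted p = 1.95e-07, 7.95e-13 and 0.0321), where 4.64% of all tested genes were called lower and 14.0% higher.

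**Figure D4:**
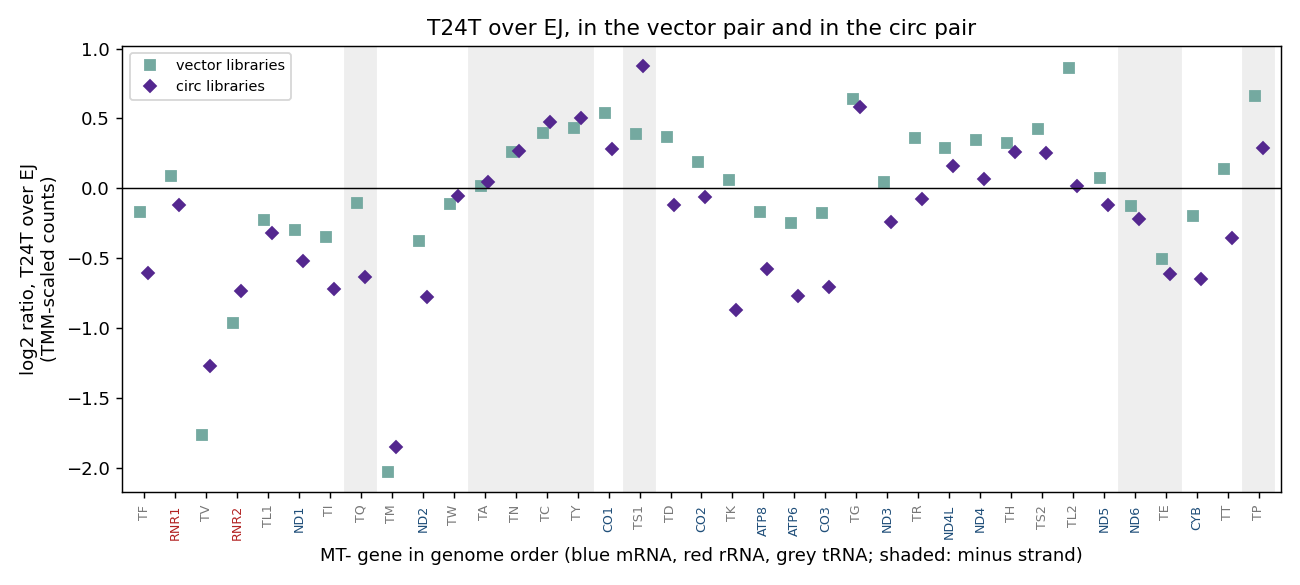
Log2 ratio of T24T over EJ in TMM-scaled counts for each MT- gene in genome order, squares for the 2 vector libraries and diamonds for the 2 circ libraries. MT-TM and MT-TV lie lowest in both pairs, and MT-TK is near 0 in the vector pair and at -0.87 in the circ pair.

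Nuclear genes that serve these RNAs were read in the same comparison, in which 7.13% of all tested genes rose and 5.56% fell. Of 34 genes of mitochondrial transcription, RNA processing and RNA decay 4 rose and 0 fell, with a median log2 difference of 0.15 beside 0.0018 over all tested genes. The genes that rose were MRM2 (0.41 ± 0.10, edgeR adjusted p = 0.00528) and MRM1 (0.96), which encode methyltransferases of the 16S rRNA, PNPT1 (0.32), of the mitochondrial RNA degradosome, and REXO2 (0.28), an oligoribonuclease. POLRMT had 1045 counts with vector and 992 with circ in EJ, and 1016 and 1103 in T24T, and did not pass (0.03 ± 0.09, edgeR adjusted p = 0.863). TFAM (0.03, adjusted p = 0.877) and the mRNA-stabilising factor gene LRPPRC (-0.11, 0.476) did not pass either.

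In the list for replication and maintenance of mitochondrial DNA 2 of 15 rose and 0 fell, the helicase gene TWNK (0.30) and RNASEH1 (0.27), with a median of 0.16. Of 31 nuclear-encoded respiratory chain genes 0 rose and 3 fell, ATP5F1C (-0.42), NDUFC2 (-0.46) and ATP5PO (-0.30), with a median of -0.07. Of the 6 biogenesis regulators tested 1 rose, PPARGC1B (0.59), with a median of 0.02. In the stress and mitophagy list 2 of 12 rose, ATF5 (0.35) and HSPA9 (0.28), and 2 fell, HSPD1 (-0.27) and CLPP (-0.30), with a median of 0.06. Each count above 0 in these 5 lists is a larger share of its list than the 7.13% that rose or the 5.56% that fell among all tested genes, and rests on 1 to 4 genes. DESeq2 called 0 genes in each of these 5 lists; at an unadjusted p under 0.05 it had 1, 1, 2, 0 and 4 in the order given, and it gave no adjusted p for 14 of the first 34.

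Other RNAs whose share may depend on how a library selects RNA also differed, in a comparison in which 7.13% of all tested genes rose and 5.56% fell. Of 7 tested histone genes 6 rose (median 1.49). HIST1H4C, with at most 4 counts in a library, was not tested. The summed TMM-scaled CPM (counts scaled to a fixed library total) of all 8 listed histone genes was 83.2 with vector and 129 with circ in EJ, and 237 and 338 in T24T. Of 6 structured or nuclear RNAs 4 fell, RN7SK, RN7SL1, RN7SL2 and RMRP, and MALAT1 and NEAT1 did not pass. The lines were unequal in this, with values that were not tested: the log2 ratio of RN7SL1 was 0.21 in EJ and -1.84 in T24T, and that of RN7SK -0.50 and -1.70. For RN7SL2 the ratios were 0.05 in EJ and -1.56 in T24T, and for RMRP 0.10 and -2.14. RMRP rests on few reads, with 4 counts in each EJ library, 35 in T24T vector and 8 in T24T circ. DESeq2 called 1 of the histone genes and 0 of the structured or nuclear RNAs (6 and 1 at an unadjusted p under 0.05), and gave no adjusted p for 5 and 1 of them. The summed CPM of those 6 was 321 with vector and 404 with circ in EJ, and 378 and 276 in T24T. Their part in the mitochondrial difference was not tested.

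Reads can also fall on copies of mitochondrial genes in the nuclear genome. The table holds 386 such copies, which had 27937 counts with vector and 22633 with circ in EJ, and 24165 and 14859 in T24T, which is 2.68% to 3.84% of the counts of the mitochondrial genes. Of 15 tested copies 10 fell and 0 rose. The copy with the most counts, MTATP6P1 (1:633696-634376), held between 19.2% and 25.0% of the MT-ATP6 count in the 4 libraries and fell by 0.39 ± 0.09 (edgeR adjusted p = 0.00559). The next, MTND2P28 (1:629640-630683), fell by 0.74 ± 0.09. With the counts of all copies added to the gene each resembles, 35 members again fell and 0 rose.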

How the data were processed

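The 4 libraries were made from total RNA. How RNA was selected for them is not stated here. Trimmomatic, HISAT2 and hg38 are named in the submitters' processing notes; the counter, its annotation and its strand setting are not given in the sources used here. The authors deposited raw read counts per gene (unnormalized) and RPKM values, which equalled count over length and total count for 100% of values within 1e-06. Columns were matched to samples by description (T24 there, T24T in the titles). Genes with 10 or more counts in 1 library and 20 or more over the 4 were kept (17689). Counts were scaled by TMM and tested with edgeR 4.0.16 (R 4.3.3), with line as a block, and Benjamini-Hochberg adjustment at 0.05; SE is the absolute log2 difference over the square root of F. The same fit, with transfection as the block, compared the lines. Within a line, log2 ratios used a prior count of 2 and exact 95% conditional binomial intervals, with no test. DESeq2 1.42.0, limma 3.58.1, other scalings, filters and thinning were tried; the script was tested on simulated data. All members are named; from nuclear lists, up to 4 genes per direction with the smallest adjusted p, and POLRMT, TFAM and LRPPRC always. Members and lists were chosen with earlier results of these data known. Nothing says that samples came from separate cultures, so p-values may measure technical spread.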

Additional observations from a re-analysis of the deposited data

Results flagged for a closer look

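MT-TV was the single member whose log2 ratio of circ over vector took opposite signs in the 2 lines, -3.14e-05 in EJ (830 counts in the vector and 776 in the circ library) and 0.49 in T24T (252 and 375 counts). The gap, T24T minus EJ, was 0.4949. With 1 library per group in each line the difference was not tested, and the EJ value is 0 within its counting interval of -0.14 to 0.14.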

How the results depend on the processing

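With circ, 35 members fell in the reported fit and also with RLE size factors, library size alone, scaling without MT- genes, at least 50 counts in each line, limma-voom and thinned counts. Across these settings 779 to 1279 of all tested genes fell. With no filter 36 members fell, where 1105 of all 29817 tested genes did. With DESeq2 25 fell, where 153 of all 17689 did. With limma on log2(RPKM + 1) or log2(RPKM + 0.1) 0 fell (35 and 32 at an unadjusted p under 0.05). Of all 17689 tested genes 0 passed there (3548 and 2933 at an unadjusted p under 0.05). In the paired design line is the block, and with no replicate block 0 fell (12 at an unadjusted p under 0.05). Without the block 0 of all 17689 tested genes passed (397 at an unadjusted p under 0.05). For T24T against EJ, the 14 lower members became 8 and 4 with the same limma settings and 3 with no replicate block, and the 12 higher became 5 with DESeq2, 4 and 0 with limma and 0 with no replicate block. Among all 17689 tested genes 2480, 1314 and 1248 were lower in the same order, and 1776, 2304, 1737 and 1944 higher. The median ratio was -0.51 in EJ when scaled without MT- genes and -0.78 in T24T by library size alone. The log2 ratio of the mitochondrial share was -0.43 in EJ and -0.72 in T24T, -0.45 and -0.75 over nuclear counts, and -0.37 and -0.62 in summed RPKM. Within the mitochondrial counts, the log2 ratio of the tRNA share in T24T was 0.0070, and 0.064 without the rRNAs. The log2 ratio of the mRNA share turned sign in EJ, from -0.016 to 0.011 in RPKM and 0.0020 without rRNAs, and in T24T went from -0.059 to -0.040 and -0.00221. For the nuclear lists DESeq2 called 0 in each direction, and RLE size factors gave 1 rise in the respiratory chain and 4 rises and 4 falls in the stress list. Scaled to all MT- counts, 6 members were higher in T24T rather than 1, where 3375 of all 17689 tested genes were higher rather than 2484. With the dispersions of the TMM fit on the members alone, 0 were higher with circ, and 9 were lower and 5 higher in T24T. Among single members signs turned for 4, all uncalled in T24T against EJ: MT-RNR1 to 0.014 (at least 50 counts) and 0.022 (no replicate block), MT-TA to -0.032 (library size, and both limma settings, -0.032 and -0.032), MT-CO2 to -0.00032 and -0.00033 (limma), and MT-ND5 to 0.0010 (at least 50 counts) and 1.58e-06 (no replicate block). The causes were not tested. Leaving out a library of a line leaves that line without a comparison, so each line was given alone, without a test. The scalings to mitochondrial counts and the addition of nuclear copies were chosen after the data were seen. Depth limits MT-TF, MT-TM, MT-TT and MT-TP, with 50 to 356 counts.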
